A study of Mus musculus with 27 samples.

Results

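The 9 libraries of normal-looking thyroid from exposed mice (NT) were divided by Bpifa1, which encodes a secreted protein of the upper airway lining. NT libraries with more than 3000 CPM (the count of a gene per 1000000 counts of its library) were set against the remaining NT libraries, and the epithelial genes that came with Bpifa1 were described; Bpifa1 itself was left out of every count. The rule found 3 of the 9 NT libraries among the 27 libraries of the series. NT replicates 7, 8 and 9 had 5861, 5374 and 6392 CPM of Bpifa1. Just outside the threshold, NT replicate 2 had 1313 CPM, and the other 5 lay lower, down to 62.6 CPM. No NT library lay between 1313 and 5374 CPM.

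RNA came from thyroid areas dissected by laser under the microscope, and each library measured the 3′ ends of polyadenylated transcripts. There were 9 libraries of normal thyroid from mice that had not been exposed (NCT), 9 NT libraries, and 9 libraries of proliferative lesions (PL), and an NT and a PL library with the same number came from 1 exposed mouse. The series title names radiation as the cause of the lesions. Strain, age, dose and time after exposure are not given in the labels used here. All 9 NT mice share the exposure and a nearby lesion, so the 3 high NT libraries and the 6 others differ by no labelled treatment. Replicate numbers follow the order of the samples in the series, and the labels name no batch. The high libraries came from 1 female and 2 males, and the others from 5 females and 1 male.

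The lining of mammalian airways is built of basal cells, which carry keratins such as Krt5 and renew the layer, of secretory cells, which make secretoglobins and enzymes that act on inhaled compounds, and of ciliated cells, whose beating axonemes move the mucus. Nearby glands add mucins and antimicrobial proteins. The thyroid lies against the trachea and larynx, and its follicles are made of another epithelium, which produces thyroglobulin (Tg).

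The NT libraries held 5047817 to 14148601 counts, and the 27 libraries 2923851 to 14148601. NT replicates 7, 8 and 9 had 5047817, 7596368 and 9150719 counts, and NT replicate 7 was the shallowest of the 9 NT libraries. The mitochondrial share was 8.87 to 13.3% in the high libraries and 8.35 to 14.0% in the others. Tg was at 24763, 32704 and 13778 CPM in the high libraries and at 21366 to 38942 CPM in the others, so the label of thyroid holds in all 9, with NT replicate 9 below the other 8. NT replicates 7 and 9 also held parathyroid transcripts, NT replicates 4 and 8 skeletal muscle transcripts and NCT replicate 9 gland transcripts; these stand beside the results they touch.

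Promoters are shown for the 4 ciliated-cell genes that were higher without overlap and hold a match to the RFX half-site GTTGCC, a motif of factors that drive cilium genes, and for 2 secretory genes that also followed Bpifa1 in the other groups. Each sequence is the 250 bases before the start site, 5′ to 3′ on the gene's strand, from RefSeq on GRCm38.p6, with capitals at each match on either strand. Dynlrb2, a light chain of dynein motors, is read from chr8:116504765-116505014 on the plus strand. Fam183b, a gene of motile cilia, is read from chr11:58801961-58802210 on the minus strand. Lrriq1 is read from chr10:103236323-103236572 on the minus strand. Sntn, the gene of sentan at the tip of cilia, is read from chr14:13670626-13670875 on the plus strand. Cyp2f2, a cytochrome P450 of airway secretory cells, is read from chr7:27119705-27119954 on the plus strand. Sec14l3, a lipid-binding protein of airway epithelium, is read from chr11:4064603-4064852 on the plus strand.
Dynlrb2: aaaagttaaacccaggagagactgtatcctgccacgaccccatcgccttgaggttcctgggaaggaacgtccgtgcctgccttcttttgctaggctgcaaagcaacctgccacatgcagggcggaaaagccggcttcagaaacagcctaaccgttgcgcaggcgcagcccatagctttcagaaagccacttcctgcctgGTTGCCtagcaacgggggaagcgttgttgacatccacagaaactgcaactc
Fam183b: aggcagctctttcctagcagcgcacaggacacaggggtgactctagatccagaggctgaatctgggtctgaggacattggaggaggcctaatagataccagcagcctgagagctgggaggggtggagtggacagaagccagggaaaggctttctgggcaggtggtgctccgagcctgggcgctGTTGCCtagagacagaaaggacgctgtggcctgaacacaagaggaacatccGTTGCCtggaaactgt
Lrriq1: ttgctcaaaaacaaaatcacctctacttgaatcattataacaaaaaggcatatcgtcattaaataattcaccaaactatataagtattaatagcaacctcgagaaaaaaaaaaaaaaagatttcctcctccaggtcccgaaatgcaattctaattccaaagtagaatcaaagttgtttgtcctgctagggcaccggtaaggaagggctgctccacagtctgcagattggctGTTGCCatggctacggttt
Sntn: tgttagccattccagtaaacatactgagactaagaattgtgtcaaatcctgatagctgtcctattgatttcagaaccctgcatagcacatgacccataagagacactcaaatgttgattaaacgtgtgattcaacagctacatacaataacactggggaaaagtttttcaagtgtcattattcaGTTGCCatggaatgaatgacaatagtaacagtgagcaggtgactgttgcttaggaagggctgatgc
Cyp2f2: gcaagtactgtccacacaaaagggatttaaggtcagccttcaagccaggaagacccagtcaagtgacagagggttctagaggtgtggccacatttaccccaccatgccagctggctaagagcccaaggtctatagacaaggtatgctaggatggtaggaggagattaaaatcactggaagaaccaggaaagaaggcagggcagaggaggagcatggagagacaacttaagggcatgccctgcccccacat
Sec14l3: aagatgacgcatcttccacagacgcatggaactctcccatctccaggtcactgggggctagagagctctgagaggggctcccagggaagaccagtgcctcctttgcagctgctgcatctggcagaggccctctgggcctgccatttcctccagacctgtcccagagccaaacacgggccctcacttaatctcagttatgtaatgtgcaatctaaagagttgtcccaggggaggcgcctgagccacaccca

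Fam183b held 2 matches, 16 and 67 bases before its start, and Dynlrb2, Lrriq1 and Sntn held 1 each. Of the 8 ciliated-cell genes that were higher without overlap, 7 had a promoter sequence and 4 of these a match; in the whole ciliated-cell list, 15 of 30 genes with a sequence had one. Of the 25 epithelial genes that were higher and had a sequence, 5 had a match. The motif was in 10.4% of all 32851 windows and in at least 1 window of 11.8% of 27025 genes. The FOX-type motif TGTTTAC, searched on both strands and free to overlap the first, was found for 3 of these 25 higher epithelial genes (Sntn, Anxa8 and Foxa1). It was in 3.17% of all windows and in at least 1 window of 3.54% of the 27025 genes. A match describes letters in a window and is not shown to be a bound site. Sequences were found for 25 of the 37 genes.

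A gene was counted as higher or lower in the high NT libraries when the 3 libraries and the 6 others did not overlap in CPM and the ratio of their means, each with 1 CPM added, was at least 2-fold. Of 16137 genes with at least 10 counts in at least 3 of the 9 libraries, 211 (1.31%) were higher and 107 (0.663%) lower. Of 199 genes in 10 lists of epithelial functions, 165 passed the filter on low counts, 37 were higher and 1 was lower. Among the 37 were 11 of 17 airway secretory genes that passed, 10 of 26 enzymes of foreign compounds, 8 of 30 ciliated-cell genes and 6 of 15 basal-cell genes. Some genes, such as Krt15 and Cyp2f2, are in 2 of these lists. The median log2 ratio of the 165 genes was 0.70, and that of all 16137 genes was -0.00, with 49.6% of them above 0. Of the remaining 34 genes, 10 had no count in any NT library. A gene could pass the filter through the 3 high libraries alone, which favours high ratios among low genes in these counts and in the list medians; with 10 counts required in all 9 libraries, 17 epithelial genes were higher. Because the libraries were chosen by Bpifa1 within the same NT libraries, these counts describe them and were not tested.

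**Figure D1:**
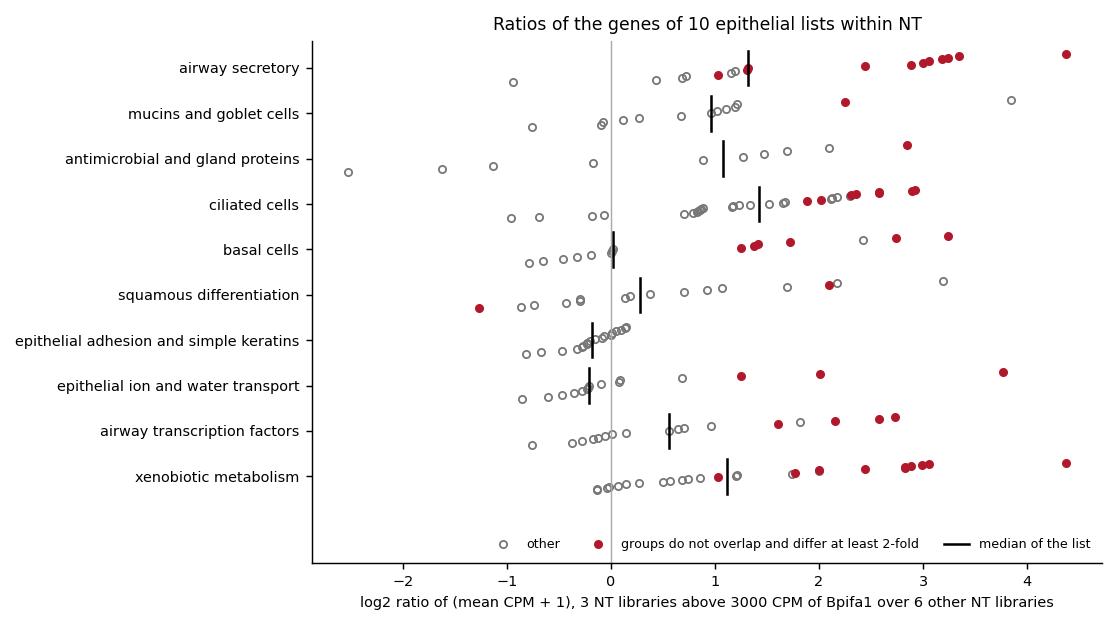
The log2 ratio of mean CPM + 1 in the 3 NT libraries above 3000 CPM of Bpifa1 over the 6 other NT libraries (horizontal axis) is plotted for each gene of 10 epithelial lists that passed the filter on low counts. Filled points are genes whose groups did not overlap and differed at least 2-fold, and black bars are list medians: 1.43 for ciliated cells, 1.32 for airway secretory genes and -0.18 for adhesion genes and simple keratins.

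Genes of the airway secretory list held 4 of the 8 highest ratios among non-overlapping genes with a mean of at least 10 CPM. Of these 4, Krt15 is also in the basal-cell list and Cyp2a5 in the enzyme list. Pth and Chga, described with the other cells, had higher ratios and overlapped. Of 18 airway secretory genes, 17 passed the filter, 11 were higher and none was lower, with a list median of 1.32. Scgb3a2 (chr18:43764289-43767399 on GRCm38), a small secretoglobin of the airway lumen, was at 192, 194 and 322 CPM in NT replicates 7, 8 and 9, against 4.15 to 41.4 CPM (median 23.1) in the other 6, a log2 ratio of 3.34. Sec14l3 (chr11:4064841-4077736) was at 95.1, 107 and 185 CPM against 3.58 to 26.9 CPM (median 12.02), a log2 ratio of 3.18. In both genes NT replicate 9 was highest and no library of the other 6 came near the lowest of the 3.

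Cyp2f2 (chr7:27119909-27133660) was at 1197, 1220 and 901 CPM in the 3 libraries and at 34.5 to 315 CPM (median 85.2) in the others, a log2 ratio of 3.06. The highest of the others, 315 CPM, was NT replicate 2, which was also the highest of them in Bpifa1. Cbr2, a carbonyl reductase of airway secretory cells, was at 412, 833 and 384 CPM against 32.0 to 124 CPM (median 77.9). Gabrp, a chloride channel subunit, was at 23.6, 29.0 and 28.7 CPM against 1.09 to 4.29 CPM. All 3 genes were thus separated, Gabrp with the 3 high libraries close together. Smaller log2 ratios were found for Lypd2 (1.32), Selenbp1 (1.31) and Aldh1a7 (1.03).

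Scgb1a1, the classical secretoglobin of club cells, did not follow this pattern. It was at 40.02, 0.39 and 4.26 CPM in the 3 libraries and at 0.12 to 39.0 CPM in the others, so the groups overlapped. Scgb3a1, a secretoglobin of larger airways and glands, was at 62.0, 10.7 and 24.2 CPM against 7.15 to 28.4 CPM and also overlapped. Hp, which encodes haptoglobin, had a log2 ratio of -0.94, the lowest of the list. Bpifb1, a longer relative of Bpifa1, did not pass the filter, with at most 0.92 CPM in any NT library.

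Enzymes that act on foreign compounds formed the second large group, with 26 of 27 genes passing the filter, 10 higher, none lower and a median log2 ratio of 1.12. Cyp2a5, a cytochrome P450 of nasal and airway epithelium, was at 114, 138 and 242 CPM against 1.41 to 16.3 CPM (median 6.04), a log2 ratio of 4.38. Adh7, an alcohol dehydrogenase of epithelia, was at 82.8, 79.6 and 56.8 CPM against 2.81 to 14.3 CPM. Gsto1, a glutathione transferase, was at 237, 510 and 130 CPM against 19.5 to 68.0 CPM. None of these 3 genes overlapped, and NT replicate 8 was highest in Gsto1 but not in Cyp2a5 or Adh7. The aldehyde dehydrogenases Aldh3a1 (log2 ratio 2.83) and Aldh1a1 (135, 87.3 and 174 CPM against 22.3 to 47.4 CPM) and the transferase Gsta4 (1.77) were higher as well. Reads of close copies, such as those of the Cyp2a, Cyp4a12, Gsta, Akr1c and Aldh1a families, could have been split or dropped in counting, so values of single members are uncertain.

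Most motile-cilium genes had ratios above 1, at low CPM. Of 33 genes, 30 passed the filter, which low genes such as these could do through the 3 high libraries alone; 8 were higher, none was lower, 26 had a ratio above 1 and the median log2 ratio was 1.43. Foxj1, the transcription factor that switches on motile cilia, was at 11.1, 8.16 and 23.0 CPM against 0.69 to 2.76 CPM (median 1.43), a log2 ratio of 2.57. Dynlrb2 was at 20.8, 13.7 and 31.4 CPM against 0.28 to 5.16 CPM, a log2 ratio of 2.93. Dnah9, a heavy chain of the outer dynein arm, was at 14.06, 2.11 and 21.1 CPM against 0.00 to 1.64 CPM. NT replicate 8 was the lowest of the 3 in each of these genes, and of the 8 genes it was highest in none. Fam183b (log2 ratio 2.35), Sntn (2.30), Lrriq1 (2.58), Ccdc39 (2.02) and Cfap126 (1.89) were also higher. Dnah5 and Cdhr3 overlapped between the groups, with log2 ratios of 2.11 and 2.30. Tppp3, a microtubule protein of cilia, was at 26.9, 33.2 and 50.5 CPM against 23.8 to 66.8 CPM, and Tekt1 had a log2 ratio of -0.96.

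Basal-cell genes divided. Of 18, 15 passed the filter, 6 were higher and none lower, but the list median was 0.02. Krt5, the defining keratin of basal cells, was at 29.5, 78.3 and 27.8 CPM against 0.70 to 10.2 CPM (median 5.32), a log2 ratio of 2.74. Krt15, a keratin of basal cells, was at 44.8, 246 and 56.1 CPM against 1.38 to 27.3 CPM (median 8.86), a log2 ratio of 3.24. NT replicate 8 was far above the others in both keratins, and without it the log2 ratios were the lowest of any left-out library, 2.10 for Krt5 and 2.06 for Krt15. Ngfr, a neurotrophin receptor of basal cells, was higher (log2 ratio 1.41), as were Krt17 (1.72), Col17a1 (1.38) and the water and glycerol channel Aqp3 (1.25). Trp63, the transcription factor of basal cells, was at 8.91, 4.74 and 4.15 CPM against 2.26 to 8.91 CPM, a log2 ratio of 0.01. Krt14 was at 2.77, 48.4 and 19.5 CPM against 0.21 to 6.87 CPM and overlapped through NT replicate 7.

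Squamous genes were mostly low: 14 of 30 did not pass the filter, and of the 16 that did only Anxa8 was higher (7.13, 17.0 and 4.37 CPM against 0.00 to 2.83 CPM). Spink5, a protease inhibitor of stratified epithelia, was at 13.5, 115 and 27.4 CPM against 0.35 to 13.5 CPM, with NT replicate 7 just inside the range of the others. The stratified keratins Krt4 (11.5, 27.9 and 3.61 CPM against 0.00 to 9.45 CPM) and Krt13, which did not pass the filter, were also highest in NT replicate 8. Ivl, an envelope protein of squamous cells, was the 1 epithelial gene counted as lower: it had no count in the 3 libraries and 0.14 to 3.74 CPM in the others. A count of 0 allows up to 3 counts, which is 0.594, 0.395 and 0.328 CPM in these libraries, so at this depth the groups could overlap.

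Mucins and gland proteins varied from library to library. Of 13 mucin and goblet-cell genes passing the filter, only Fcgbp, a mucus protein, was higher, at 35.5, 14.09 and 9.29 CPM against 1.66 to 6.10 CPM. Clca1, a secreted goblet-cell protein, was at 47.5, 7.24 and 0.11 CPM against 0.00 to 1.86 CPM; it had the list's highest log2 ratio, 3.85, and overlapped through NT replicate 9. Muc5b, a gel-forming mucin, was at 8.32, 1.97 and 1.75 CPM against 0.23 to 2.29 CPM and overlapped. Of 10 antimicrobial genes passing the filter, only Ltf, which encodes lactoferrin, was higher, at 790, 234 and 202 CPM against 10.7 to 119 CPM. Without NT replicate 7 its log2 ratio was 1.94 in place of 2.84, and that of Fcgbp was 1.55 in place of 2.25. Reg3g, Dmbt1 and Pigr had log2 ratios of 2.10, 1.69 and 1.27 and overlapped, and Lcn2 and Saa3 had -1.62 and -2.53.

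Among airway transcription factors, 4 of 17 that passed the filter were higher. Klf5, a factor of proliferating epithelia, was at 75.1, 74.3 and 59.1 CPM against 10.1 to 35.7 CPM, a log2 ratio of 1.60. Foxa1, a forkhead factor of endodermal epithelia, was at 8.72, 23.4 and 30.1 CPM against 1.25 to 8.35 CPM and was separated by a small margin, and Foxj1, given above, was higher as well. Sox2, a factor of the foregut and airway epithelium, was at 21.8, 4.48 and 11.2 CPM against 0.69 to 4.85 CPM and overlapped through NT replicate 8. Nkx2-1, which thyroid and lung epithelium share, was at 88.6, 57.7 and 77.3 CPM against 30.2 to 98.6 CPM, a log2 ratio of 0.14.

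Genes common to all epithelia did not separate the groups. None of 18 adhesion genes and simple keratins was higher or lower, and their median log2 ratio was -0.18. Epcam was at 276, 279 and 327 CPM against 246 to 321 CPM, and Krt8 had a log2 ratio of -0.48. Of 15 ion and water transport genes passing the filter, Aqp4 (37.05, 9.74 and 19.0 CPM against 0.14 to 1.77 CPM), Aqp3 and Clic6 were higher, while the median was -0.21. Aqp4 is a water channel of airway and other epithelia, and Clic6 is a chloride channel protein.

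**Figure D2:**
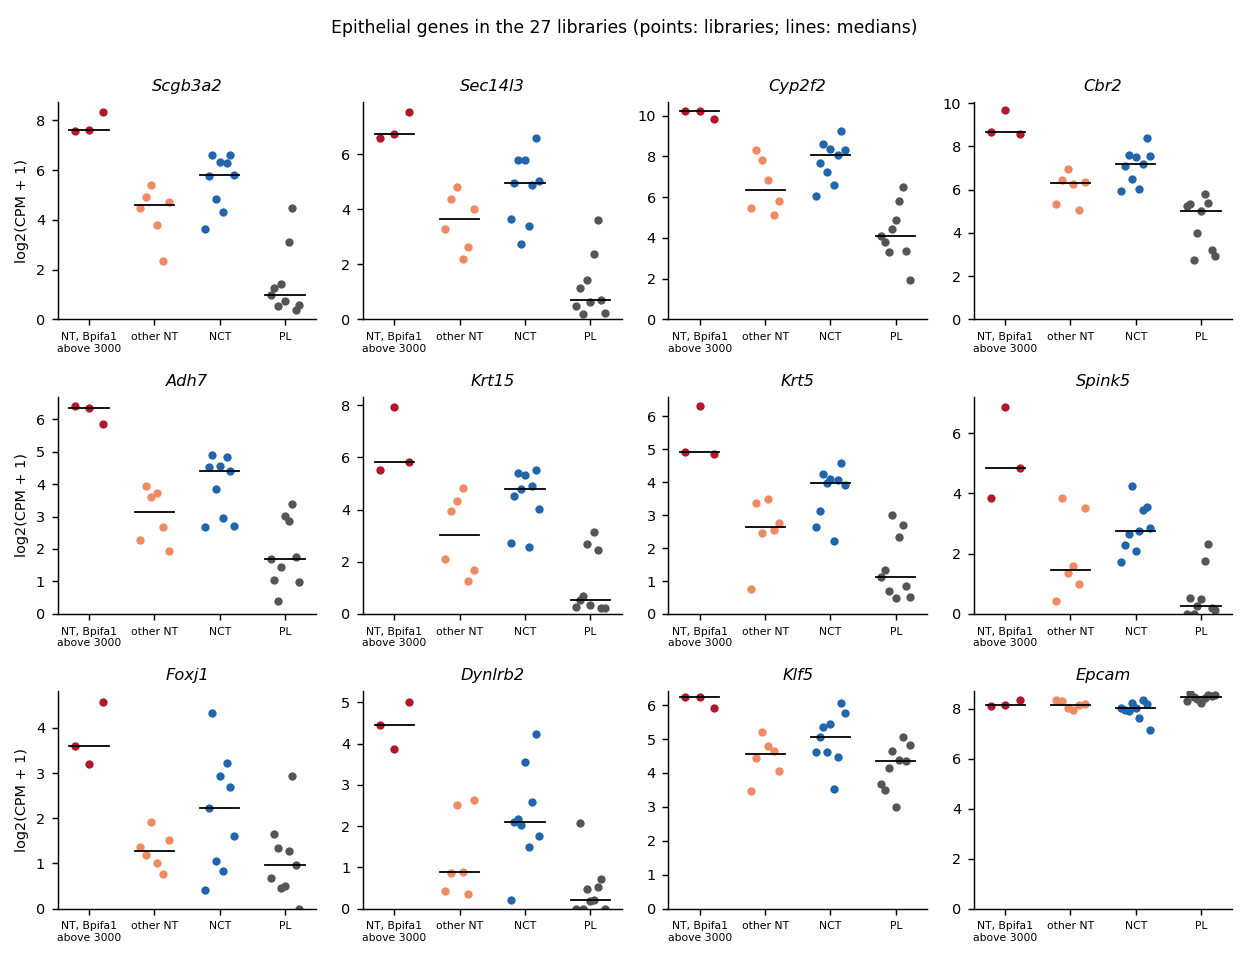
Levels of 12 epithelial genes, as log2(CPM + 1), are plotted for the 3 NT libraries above 3000 CPM of Bpifa1, the 6 other NT, 9 NCT and 9 PL libraries; points are libraries and lines are medians. The 3 high NT libraries lie above all other NT libraries in Scgb3a2, Sec14l3, Cyp2f2, Cbr2, Adh7, Krt15, Krt5, Foxj1, Dynlrb2 and Klf5, they overlap in Spink5 by a small margin, and Epcam is level across groups.

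The 3 libraries were not alike. Of the 37 genes, 13 were highest in NT replicate 7, 10 in NT replicate 8 and 14 in NT replicate 9. NT replicate 8 led 3 of the 6 basal genes, 5 of the 10 enzymes and none of the 8 cilium genes, which were led by NT replicate 9 (5) and NT replicate 7 (3). Summed over lists, the airway secretory genes reached 2552, 3131 and 2484 CPM in NT replicates 7, 8 and 9 against 319 to 735 CPM in the others, and the enzymes 2933, 3974 and 2885 CPM against 552 to 1198 CPM. The summed mucins, at 139, 90.0 and 61.3 CPM, lay just above the 32.4 to 56.3 CPM of the others. The summed transcription factors, at 391, 410 and 398 CPM, also lay above the others, at 240 to 295 CPM. Neither sum set these libraries apart from the lesions. In PL the mucin sum ran from 54.5 to 176 CPM and the transcription factor sum from 258 to 518 CPM. The summed cilium genes overlapped, at 564, 568 and 698 CPM against 254 to 577 CPM.

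Within 1 sex the high libraries could be compared only as 1 against 5 females or 2 against 1 male. The log2 ratio of Scgb3a2 was 3.14 in females and 3.08 in males, and that of Sec14l3 was 2.89 and 2.80. That of Cyp2f2 was 3.64 and 1.75, and that of Krt15 was 1.97 and 3.30. All of these ratios had the same direction in both sexes, and sex cannot otherwise be told apart from the split.

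Markers of other cells also varied among the NT libraries, and not all of them followed the split. The parathyroid and skeletal muscle sums overlapped between the groups. Pth, the parathyroid hormone gene, was at 18123, 40.7 and 28264 CPM in NT replicates 7, 8 and 9 and at 36.7 to 269 CPM in the others, and Chga, a granule protein of endocrine cells, was at 14886, 48.3 and 10615 CPM against 27.3 to 250 CPM. The 12 genes of the C cell list summed to 16888, 5863 and 13486 CPM against 493 to 3856 CPM. Without Chga, a list choice made after its values were seen, they summed to 2002, 5815 and 2871 CPM against 388 to 3816 CPM and overlapped. Calca, the calcitonin gene, was at 1812, 5227 and 2548 CPM against 328 to 3456 CPM, and Gfra4, a receptor of C cells, was higher (24.8, 16.5 and 17.9 CPM against 1.70 to 8.16 CPM). Skeletal muscle genes summed to 18.03, 2331 and 22.3 CPM, and 1 of the others, NT replicate 4, reached 2233 CPM.

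Macrophage genes lay lower, with a sum of 313, 491 and 385 CPM against 535 to 1427 CPM. Of the 8 genes, Adgre1, Csf1r and C1qa were lower without overlap and none had a ratio above 1. The endothelial sum (599, 752 and 770 CPM against 781 to 1064 CPM) and the alveolar surfactant sum (847, 781 and 523 CPM against 995 to 1442 CPM) lay lower too, with Napsa the surfactant-list gene that was lower. Sftpc, the defining surfactant gene of alveolar cells, was at most 1.58 CPM in the 3 libraries. Nearly all of the surfactant-list sum there thus came from other genes of the list. The cartilage genes Matn1 and Matn3 were at 0 in all 9. Thyroid follicular genes summed to 27238, 36346 and 15442 CPM against 25591 to 43969 CPM, and of the 19 only Duox1 was lower. The other lists (fibroblasts, smooth muscle, adipocytes, T, B and red blood cells, neutrophils, nerve, cartilage and salivary glands) overlapped in their sums, with Ncam1 of the nerve list higher. In bulk tissue, fewer cells of a type and less RNA per cell cannot be told apart, and the part of these cells in the epithelial difference was not tested.

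**Figure D3:**
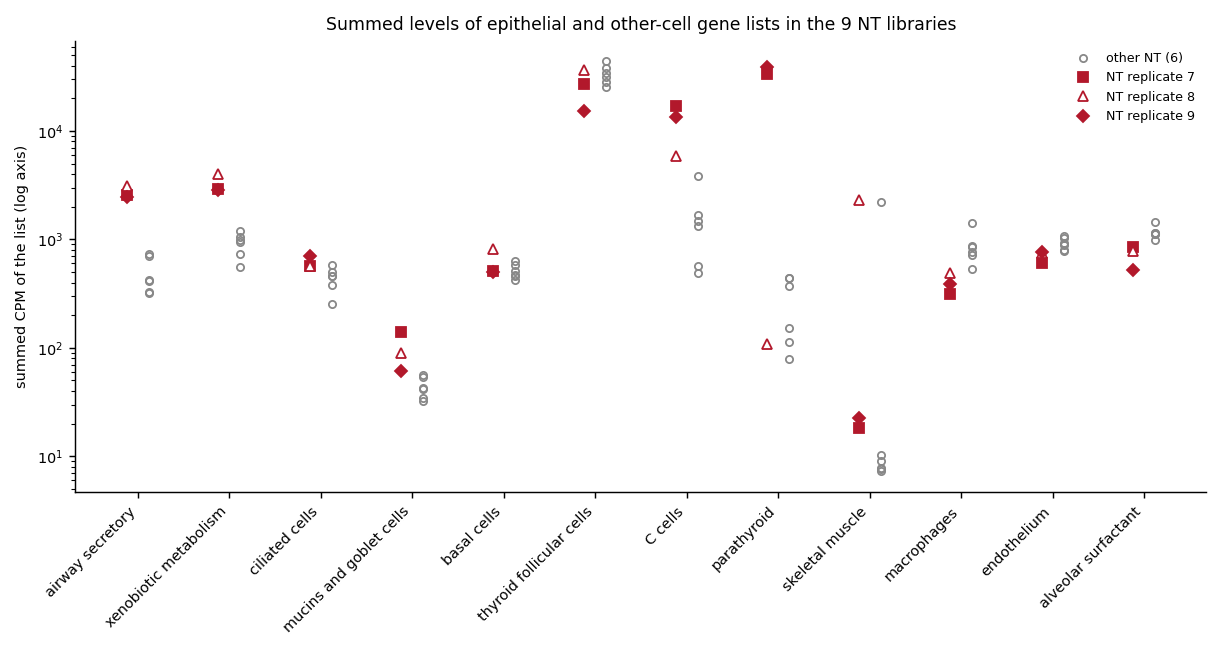
Summed CPM of 12 gene lists (log axis) in the 9 NT libraries, with NT replicates 7 (squares), 8 (open triangles) and 9 (diamonds) in red and the 6 others as grey circles. The airway secretory sum is 2484 to 3131 CPM in the 3 libraries and at most 735 CPM in the others, while parathyroid transcripts are high only in NT replicates 7 and 9 and skeletal muscle transcripts only in NT replicate 8 and 1 other.

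Without the parathyroid-rich NT replicates 7 and 9, NT replicate 8 stood alone against the 6 others, and the log2 ratios were 3.06 for Scgb3a2, 2.91 for Sec14l3, 3.20 for Cyp2f2, 3.50 for Cbr2 and 3.52 for Krt5. Those of Foxj1, Dynlrb2 and Lrriq1 were 1.86, 2.28 and 1.20, in place of 2.57, 2.93 and 2.58. Among genes with a mean of at least 10 CPM whose groups did not overlap, which leaves out Pth and Chga with log2 ratios of 6.73 and 6.35, the highest ratio belonged to Tnmd (tenomodulin). It was at 740, 18.4 and 758 CPM against 4.24 to 9.74 CPM, and its log2 ratio was 6.18 with these 2 libraries and 1.48 without them. Akr1c13 went from 3.39 to 0.53 in the same way. Tnmd and Akr1c13 were thus high in the libraries high in Pth. Cyp4a12b (23.6, 90.6 and 43.3 CPM against 0.14 to 10.9 CPM) and Msln, the mesothelin gene (49.5, 43.1 and 30.7 CPM against 0.42 to 7.04 CPM), were high in NT replicate 8 as well. The log2 ratio of Cyp4a12b, 3.61, was 2.97 without NT replicate 8 and 4.22 without NT replicate 2. The remaining 4 of the 8 highest ratios among these genes without overlap belonged to Cyp2a5, Scgb3a2, Krt15 and Sec14l3.

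The lowest ratios among genes with a mean of at least 10 CPM whose groups did not overlap included those of macrophage genes. Ccl6, a chemokine of myeloid cells, was at 29.9, 30.8 and 27.8 CPM against 48.5 to 304 CPM, a log2 ratio of -2.02. Msr1, a scavenger receptor of macrophages, was at 2.38, 5.40 and 4.15 CPM against 11.3 to 28.9 CPM, a log2 ratio of -1.80. Both genes were lower in all 3 libraries. Slc7a7 (-1.66), Ifit3b (-1.60), Tmprss13 (-1.52), Gpr65 (-1.51), Rnf183 (-1.45) and C1qa (-1.38) followed.

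In the unexposed thyroids, the median of Scgb3a2 lay between the ranges of the high and the other NT libraries. That of Cyp2f2 lay below the high NT libraries and above the median of the others, but inside their range. Scgb3a2 ranged from 11.4 to 97.5 CPM (median 55.1) in NCT and from 0.32 to 21.1 CPM (median 0.98) in PL. Cyp2f2 ranged from 66.8 to 610 CPM (median 267) in NCT and from 2.82 to 88.6 CPM (median 16.2) in PL. In 35 of the 37 genes the NCT median lay above the median of the 6 other NT libraries, and in 35 the PL median lay below it. The lowest of the 3 high NT libraries lay above every NCT library in 14 of the 37 genes and above every PL library in 27. Foxj1 was among those that overlapped with NCT, where it reached 19.2 CPM. The 37 genes were picked for low levels in the 6 other NT libraries, which favours an NCT median above theirs. They were also picked for high levels in the 3 high libraries. The shares over all genes were not counted, so these counts only describe the 37 genes.

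The first question put to libraries that the rule did not use was whether the lesions of the same 3 mice carried the programme too. PL replicates 7, 8 and 9 had 442, 27.5 and 18.7 CPM of Bpifa1, so the first was the highest and the last the lowest of the 9 PL libraries. Scgb3a2 was at 21.1, 0.32 and 0.50 CPM in these libraries and at 0.46 to 7.67 CPM in the other 6, and Cyp2f2 was at 88.6, 9.17 and 2.82 CPM. PL replicate 7 was the highest and PL replicate 8 or 9 the lowest of the 9 in both genes.

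Over the 15320 genes tested by edgeR's quasi-likelihood test, none was higher (0%) and none lower (0%) at a Benjamini-Hochberg adjusted p of 0.05 or less, with 950 genes (6.2%) at an unadjusted p under 0.05. DESeq2's Wald test called 24 genes higher and 67 lower, of which 0 and 2 were epithelial. Of the 199 epithelial genes 132 were tested; 64 had an estimate above 0, and the median log2 difference was -0.07, against 0.01 over all genes, of which 50.7% were above 0. Scgb3a2 had a log2 difference of 1.65 (SE 1.16, adjusted p = 0.902), Cyp2f2 one of 0.40 (SE 0.94, adjusted p = 0.979) and Krt15 one of -0.76 (SE 1.36, adjusted p = 0.972) in edgeR. With these errors, a 2-fold difference of these genes in either direction was not detectable. Of the 37 genes above, 26 were tested, 13 had an estimate above 0 and their median was -0.01.

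The genes with the smallest p in this comparison were not airway genes. Foxq1, a forkhead factor, had a log2 difference of 2.32 (SE 0.31) and an edgeR adjusted p of 0.0544, which ranged from 2.73e-07 to 0.353 over 16 alternatives. Sdc4, Ptpn13, Scube3 and Prune2 followed with positive estimates, and Pcolce2, Kitl, Nkd2, Col14a1 and Col3a1 with negative ones; none passed. Pcolce2, an enhancer of collagen processing, had -4.14 (SE 0.63, adjusted p = 0.145 in edgeR). Without PL replicate 8, 9 genes passed as higher and 5 as lower; without PL replicate 5, 1 passed as lower.

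The second question was whether the same genes followed Bpifa1 in NCT and PL, which the rule did not use. A slope on log2(CPM + 1) of Bpifa1 was fitted for each gene over the 18 libraries, with the group as a covariate, so that a slope of 1 means that the gene doubled where Bpifa1 doubled. Bpifa1 ran from 270 to 3451 CPM in NCT and from 18.7 to 442 CPM in PL. Of 14233 genes tested with edgeR's quasi-likelihood test, 6 rose with Bpifa1 (0.0422%) and none fell (0%), with 682 genes (4.79%) at an unadjusted p under 0.05; DESeq2's Wald test called 28 that rose and 5 that fell. Of the 6 genes, 4 were epithelial list genes, out of 129 tested: Scgb3a2, Sec14l3, Cyp2f2 and Sox2.

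Scgb3a2 rose most tightly, with a slope of 1.01 (SE 0.09, edgeR adjusted p = 4.15e-06), and it passed in all 18 fits that left out 1 library. Sec14l3 had a slope of 0.94 (SE 0.13, edgeR adjusted p = 0.00115) and Cyp2f2 one of 0.72 (SE 0.10, edgeR adjusted p = 0.00533). Both passed in 17 of the 18 fits; without PL replicate 7 the adjusted p was 0.0589 and 0.0757. PL replicate 7 had the highest Bpifa1 level of the lesions, and the slopes over all left-out libraries stayed between 0.88 and 1.03 for Sec14l3 and between 0.66 and 0.77 for Cyp2f2.

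Sox2, at 0.78 to 19.5 CPM in NCT and 0.10 to 3.20 CPM in PL, had a slope of 0.95 (SE 0.17, edgeR adjusted p = 0.0267). It passed in 13 of 18 fits and did not pass without NCT replicate 1, 2, 4, 8 or 9. Without the 2 libraries farthest from the median Bpifa1 level, PL replicates 9 and 1, Sox2 had an adjusted p of 0.0669. The other 2 genes that passed were chosen after their values were seen. They were Serpinb11, a serine protease inhibitor family member (slope 1.13, SE 0.17, edgeR adjusted p = 0.00404), and AU040972 (slope 1.33, SE 0.18, edgeR adjusted p = 0.00115). AU040972 is annotated as an antisense gene, and because the labels do not give the strand setting of the counting, its reads cannot be told apart from those of a gene on the opposite strand. Within NT, Serpinb11 was also among the genes that were higher without overlap.

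**Figure D4:**
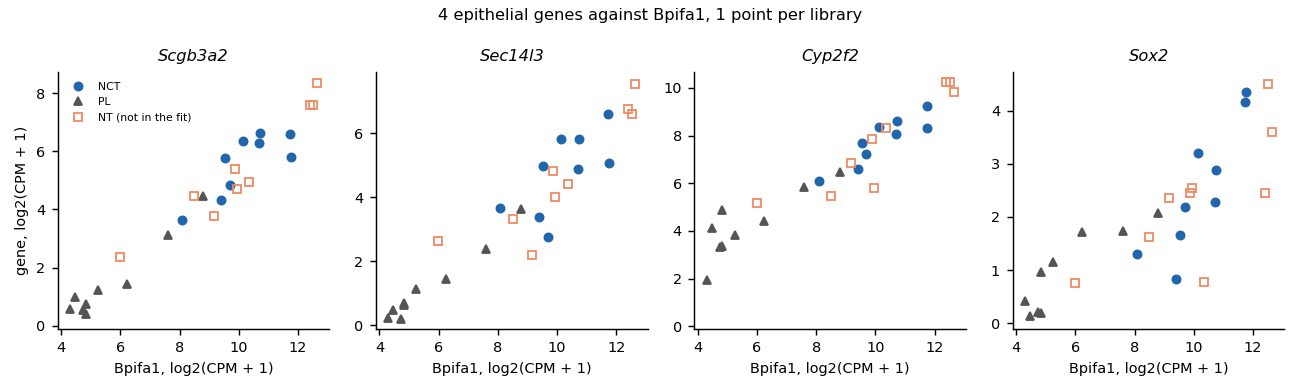
The levels of Scgb3a2, Sec14l3, Cyp2f2 and Sox2 are plotted against Bpifa1, both as log2(CPM + 1), with 1 point per library: NCT as circles, PL as triangles and NT, which was not in the fit, as open squares. In each panel the gene tends to be higher where Bpifa1 is higher, though not in every library. The fitted slopes over the NCT and PL libraries are, in the same order, 1.01, 0.94, 0.72 and 0.95.

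The slopes of the remaining epithelial genes did not pass. Of the 129 genes, 93 had a slope above 0, and 50.3% of all genes did; the median slope was 0.10, against 0.00 over all genes. Of the 37 genes that were higher in the high NT libraries, 27 passed the filter of this fit; all 27 had a slope above 0, from 0.01 to 1.65 with a median of 0.43, and 18 of them had an unadjusted p under 0.05. The 10 that were not tested, among them Foxj1, Dnah9, Sntn and Aqp3, were too low in NCT and PL. Nearest the threshold were Gsto1 (slope 0.58, edgeR adjusted p = 0.0577), Krt5 (0.68, 0.0794) and Krt15 (0.95, 0.0795), and Sftpd, a collectin of lung and other mucosae in the alveolar list, was at 0.90 (edgeR adjusted p = 0.0630). Cyp2a5 had a slope of 0.73 (SE 0.19), Gabrp of 0.72 (SE 0.18), Cbr2 of 0.43 (SE 0.14), Klf5 of 0.28 (SE 0.10) and Dynlrb2 of 0.51 (SE 0.37), none past the threshold.

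By role, the airway secretory genes had a median slope of 0.70 (15 tested, 14 above 0), the enzymes 0.21 (20 tested, 16 above 0), the basal-cell genes 0.17 (12 tested, 11 above 0), the transcription factors 0.15 (16 tested, 15 above 0) and the ciliated-cell genes 0.15 (18 tested, 13 above 0). Adhesion genes and simple keratins had a median of -0.02 (18 tested, 7 above 0). The antimicrobial genes had a median of 0.91 (8 tested, 8 above 0), but none passed. NCT replicate 9 held 11416 CPM of that list, against at most 637 CPM in the other NCT libraries. It was also the highest in Bpifa1 of all libraries in the fit, at 3451 CPM, with NCT replicate 8 next at 3393 CPM. Without the libraries above 2000 CPM of Pth or Lipf, the slope of Ltf was 0.72 in place of 1.65 and passed (edgeR adjusted p = 0.00357), and that of Dmbt1 was 0.38 in place of 1.78 (edgeR adjusted p = 0.792). In the same fit the slope of Scgb3a2 was 1.15 (edgeR adjusted p = 1.55e-06) and that of Sec14l3 1.01 (0.00379), while Cyp2f2 (0.70, 0.135) and Sox2 (0.81, 0.612) did not pass. Over all alternatives the adjusted p ran from 4.33e-18 to 0.552 for Scgb3a2, from 5.12e-09 to 0.730 for Sec14l3, from 2.09e-09 to 0.999 for Cyp2f2 and from 6.25e-06 to 0.999 for Sox2.

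**Figure D5:**
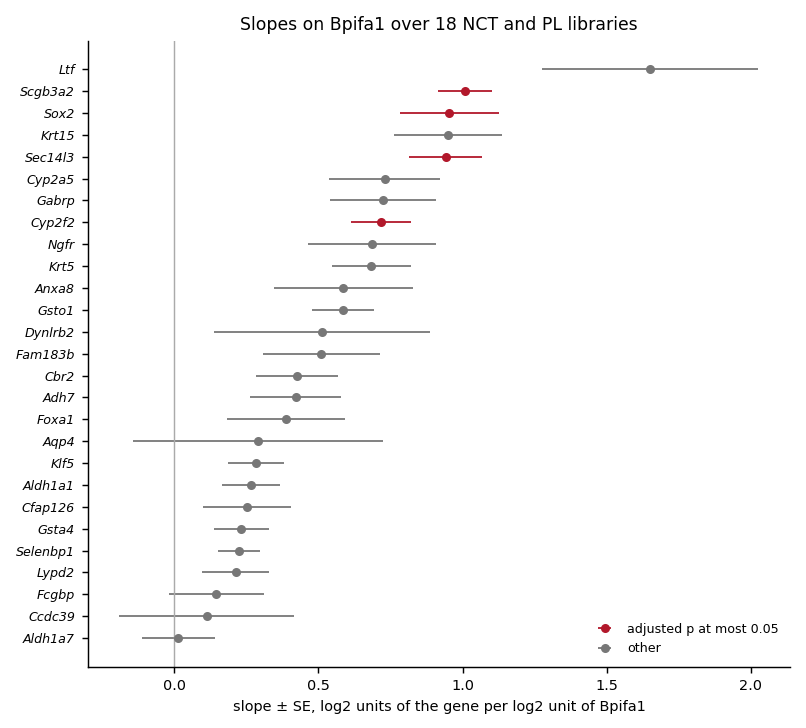
Slopes on Bpifa1 over the 18 NCT and PL libraries, in log2 units of the gene per log2 unit of Bpifa1, are plotted with their standard errors for Sox2 and for 26 of the 27 epithelial genes that were higher in the high NT libraries and could be tested. All slopes lie above 0, from 0.01 for Aldh1a7 to 1.65 for Ltf, and 4 of them (red) passed.

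The slopes of Scgb3a2, Cyp2f2, Sec14l3 and Sox2 lay above 0 in each group alone. Scgb3a2 had a slope of 0.76 (SE 0.17) over the 9 NCT libraries and 1.15 (SE 0.15) over the 9 PL libraries, with edgeR adjusted p-values of 0.552 and 0.0250. Cyp2f2 had 0.78 (SE 0.10) and 0.67 (SE 0.15), with 0.0114 and 0.999. Sec14l3 had 0.76 (SE 0.26) and 1.12 (SE 0.21), with 0.730 and 0.346. Cbr2 passed over NCT alone (slope 0.61, SE 0.09, edgeR adjusted p = 0.0174) and Ltf over PL alone (slope 0.74, SE 0.08, edgeR adjusted p = 0.00891). In a test of the difference between the NCT and PL slopes, added after the data were seen, edgeR called 0 of 14233 genes, with 510 at an unadjusted p under 0.05; DESeq2 was not run on it.

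Markers of other cells had their own slopes in the same fit. Tg had a slope of -0.28 (SE 0.06, edgeR adjusted p = 0.189), one of the 5 negative slopes of smallest p with Lrrc42, Hist3h2a, Banp and Esm1, and 3 of 19 thyroid follicular genes had a slope above 0. Pth had a slope of -0.22 (SE 1.13), Chga of -0.21 (SE 1.17), Calca of 0.25 (SE 0.21), Csf1r of -0.03 (SE 0.09) and C1qa of -0.01 (SE 0.10), none past the threshold. All 6 tested salivary and oral gland genes had a slope above 0, with a median of 1.57. So did all 8 tested skeletal muscle genes (median 0.61) and all 7 tested adipocyte genes (median 0.14), and none passed. NCT replicate 9, the highest in Bpifa1, held 63309 CPM of the gland list, against at most 273 CPM in the other NCT libraries. Over PL alone, Dcpp1, Dcpp2 and Dcpp3 had slopes of -1.11, -1.10 and -1.10, Amy1 -0.03, Lipf 0.14 and Bhlha15 0.17. The muscle slopes ran from -0.37 (Myh1) to 0.09 (Ckm) over NCT alone and from 0.47 (Myh1) to 1.12 (Myh4) over PL alone. The part of these cells in the slopes was not tested.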

How the data were processed

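Counts per gene of 27 mouse thyroid libraries were used as the authors deposited them: raw counts of 3′-end reads, whole numbers with no normalization, from laser-dissected tissue and a QuantSeq kit, per the labels' protocols. The submitters' processing notes list STAR, featureCounts, DESeq2 and GRCm38 and say nothing of their versions or use. Which annotation was counted, with or without strand and molecular identifiers, is not given in the sources used here. Of 54532 gene IDs, 54495 matched GENCODE M21 on GRCm38, and the other 37 held 0.00428% of all counts.

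Groups came from the labels, and each library is 1 mouse within its group. The members, the gene lists and the tests were chosen with earlier results of these data known. CPM used the column total. Within NT no test was made, because the rule used those libraries. PL libraries of the same mice and slopes over NCT and PL were tested with edgeR 4.0.16 (TMM, filterByExpr, robust quasi-likelihood F test, Benjamini-Hochberg over all genes tested, threshold 0.05) in R 4.3.3, and with DESeq2 1.42.0 as an alternative. Each fit was tested on simulated data.

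Named are the markers; up to 4 genes of each epithelial list by ratio among those without overlap and averaging 5 CPM or more, and its most abundant overlapping gene; the 8 genes of largest ratio in each direction averaging 10 CPM or more; of each list of other cells the most abundant gene and any without overlap; and in each test the list genes that passed and the 5 genes of smallest p in each direction. Other list genes were named after their values were seen, as examples of either kind. Predicted genes were counted and not named. Alternatives changed the scaling, the Bpifa1 threshold, the filter, the fold minimum, the pseudocount, the tool, the covariate and the libraries. Intervals and limits for counts of 0 cover counting error only. Some genes of the lists are counted in the totals and not reported here by name.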

Additional observations from a re-analysis of the deposited data

Results flagged for a closer look

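The summed CPM of all 27 lists was checked for a single library far from the rest of its group (NCT, the 6 other NT libraries and PL). Of 81 sums, 21 stood apart, each by its highest library. The limits used give about 1 in 20 by chance only for independent values with a normal distribution. These sums were on the plain CPM scale, and the lists share libraries and some genes. The number that chance gives here is therefore not known. NCT replicate 9 stood above the other NCT libraries in the airway secretory list (3128 CPM, next 1675), mucins (3550), antimicrobial and gland proteins (11416), salivary and oral glands (63309) and adipocytes (4001).

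Among the 6 other NT libraries, NT replicate 2 was high in ion and water transport genes (4393 CPM), NT replicate 6 in alveolar surfactant (1442) and in B and plasma cell genes (485), and NT replicate 4 in C cell (3856), skeletal muscle (2233) and smooth muscle genes (368). In PL, the high library was replicate 8 for salivary and oral glands (21899 CPM), replicate 2 for C cells (17736) and parathyroid (44380), replicate 9 for cartilage (935), replicate 6 for skeletal muscle (678), replicate 1 for B and plasma cells (352), and replicate 5 for neutrophils (30.8) and red blood cells (17629). In NCT, replicate 5 was high in B and plasma cell genes (441 CPM) and replicate 2 in neutrophil genes (11.9).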

How the results depend on the processing

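Within NT, 211 genes were higher, 107 lower and 37 epithelial genes higher. These counts were 81, 56 and 13 with a Bpifa1 threshold of 1000 CPM, and 67, 50 and 17 with 10 counts required in all 9 libraries. Without a fold minimum 404 were higher and 375 lower, with a 4-fold minimum 74 and 8, and with a pseudocount of 5 CPM 92 and 31. Without the libraries rich in Pth 672 were lower, in females alone 807 were higher and 1048 lower, and in males alone 803 and 315; in these 3 cases fewer libraries have to be separated. Leaving out 1 NT library gave 230 to 628 higher (628 without NT replicate 8), 95 to 387 lower and 36 to 52 epithelial genes higher. NT ratios were recomputed for a different set of genes, also 37 in number, that were named by the rule and were higher or lower without overlap. This set holds genes outside the epithelial lists, such as Csf1r, Gfra4 and Tnmd. It holds only part of the epithelial genes that were higher, and Gabrp and Gsto1 are not in it. None of these ratios changed direction under any alternative run, and other ratios were not recomputed.

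In PL of the same mice, where edgeR called none, DESeq2's Wald test gave 24 higher and 67 lower (2 epithelial), no filter 14 and 18, and 10 counts in all libraries 1 higher. Leaving out 1 library gave 0 to 9 higher and 0 to 5 lower. For the slopes (6 genes up, 4 epithelial, 0 down), DESeq2's Wald test gave 28, 17 and 5, no filter 19 up and 3 down, and 10 counts in all libraries 1 and 1 epithelial. NCT alone and PL alone each gave 3 up, 2 epithelial, and leaving out the 2 libraries farthest in Bpifa1 gave 1 down. Leaving out 1 library gave 4 to 10 up, 3 to 6 epithelial and 0 to 1 down. Apart from the cases named, the cause was not tested. TMM scaling within NT and DESeq2 size factors in both fits kept every count within 1.5 times. No paired analysis was possible because the libraries compared come from different mice. Depth limits the low genes: at 5047817 counts a gene at 0 could still be at 0.594 CPM.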

Other observations

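The 2 lists that separated the high NT libraries most clearly, airway secretory genes and enzymes of foreign compounds, varied in the unexposed thyroids as well. The airway secretory sum ran from 342 to 3128 CPM in NCT (median 927) and from 167 to 469 CPM in PL (median 296), and that of the enzymes from 960 to 2039 CPM in NCT (median 1386) and from 504 to 770 CPM in PL (median 633). The highest NCT value of the secretory sum, in NCT replicate 9, overlapped the high NT libraries, and the highest NCT value of the enzymes, 2039 CPM, did not reach their lowest, 2885 CPM. In NCT replicate 9, Scgb3a1 reached 1981 CPM, Tff2 2115 CPM and Dmbt1 3053 CPM, while Scgb3a2 was at 55.1 CPM, the NCT median.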
